A study of Mus musculus with 9 samples.

Results

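The liver of mice on a high-fat diet was compared with the liver of mice on a regular diet, on 3 arrays for each diet. These were 6 of the 9 arrays of the series and were chosen by their titles. The comparison ran over 22180 genes, each read by the probe set with 1 gene symbol that had the highest mean over the 9 arrays. The mice were C57BL/6, written C56BL/6J in the strain entry, and 5 weeks old at the start. Both groups received vehicle by mouth once a day for 12 weeks and were fasted overnight before the liver was taken. The labels give neither the fat source of the diet nor the sex of the mice. The 3 remaining arrays came from mice on the high-fat diet that were dosed with 500 mg/kg of an extract of ginseng flower buds, and they enter here only through the pooled estimate of the spread. Nothing in the labels ties the arrays to separate mice, and p-values therefore measure only how these samples vary, which may be technical.

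In the fasted liver, fatty acids released by fat tissue are burned in mitochondria and peroxisomes, largely under the transcription factor PPARα, while amino acids supply carbon for new glucose and their nitrogen leaves as urea. Sterol synthesis is set by the transcription factor SREBP-2, which is held in the endoplasmic reticulum by INSIG proteins when sterols are plentiful and moves to the nucleus when they are scarce. The liver also secretes most plasma proteins, among them the acute-phase proteins that rise with inflammation.

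Values are log2 expression values, so a difference of 1 is a doubling of signal. Differences are high-fat diet minus regular diet, ± standard error from a model fitted with limma to all 9 arrays, and a gene was called when its Benjamini-Hochberg adjusted p over all genes lay under 0.05. Array values are given in the order of the replicate numbers 1, 2 and 3, which are names only. In total 297 genes were called, which is 1.34% of those tested, with 182 that rose (0.821%) and 115 that fell (0.518%). In 66 of them the change was over 2-fold (0.298%). Rises had a median of 0.71 and reached 2.78, and 49 of them exceeded 2-fold. Falls had a median of 0.56 in size and reached 4.12, and 17 exceeded 2-fold. The median difference over all genes was 0.00, with 5% of genes below -0.295 and 5% above 0.319. Calls were rarer among dim genes: 0.18% of the 5545 dimmest genes and 4.09% of the 5545 brightest. The median of the gene means, 4.74, serves here as a mark of low signal, since no detection calls were used, and a called difference that starts or ends below it is given as a lower bound.

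**Figure D1:**
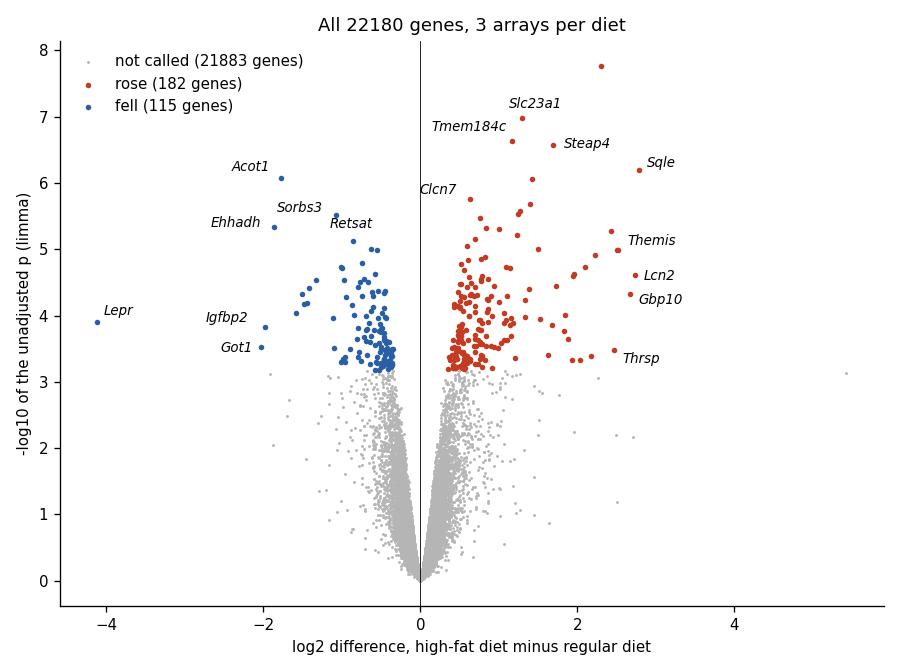
Each point is 1 of 22180 genes, with the log2 difference between the diets on the horizontal axis and -log10 of the unadjusted limma p on the vertical axis. Red points rose (182 genes) and blue points fell (115), and Lepr stands alone at the left at -4.12.

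Arrays of 1 diet correlated at 0.9907 to 0.9928 (regular diet) and 0.9922 to 0.9937 (high-fat diet) over all genes, above every pair of arrays of different diets (0.9874 to 0.9902). On the first principal component of the 6 arrays, which held 38.9% of the variance, the high-fat diet arrays stood at 16.36, 16.80 and 17.04 and the regular-diet arrays at -8.46, -19.00 and -22.75. On that component regular-diet replicate 1 was the nearest of its group to the high-fat diet. Leaving that array out raised the count of calls to 452, whereas without replicate 2 of the regular diet it was 58 and without replicate 3 it was 117. Leaving out a high-fat diet array gave 131 (replicate 1), 117 (replicate 2) or 63 calls (replicate 3). Leaving out an extract array gave 153 (replicate 1 or 2) or 203 calls (replicate 3), and the 6 arrays alone gave 15. The 297 genes had the same sign of difference in each of these fits, but they were chosen on these same arrays. Leaving out extract arrays cannot change the difference between the diets. Of the 297 genes, 39 passed in all 9 fits without 1 array, and for genes named below the number of these fits in which they passed is given. The tissue label fitted its markers: Alb, the albumin gene, read between 13.48 and 13.57 in the 6 arrays, and the 17 measured hepatocyte genes had a median difference of 0.02. Only Cps1 of these 17 was called, as a fall that is described below.

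Genes of sterol synthesis rose in number and in size. Of the 11 measured enzymes that turn squalene into cholesterol, 7 rose, and of the 7 that lead from acetyl units to squalene and its branch, 3 rose. The median differences were 1.07 and 0.73. The promoters of 3 of these genes are printed here, because the family of sterol genes is known to carry boxes read by SREBP and by the factor NF-Y. They come from RefSeq on GRCm38.p6, as windows of 300 bases that lie mostly before the start of the gene, on the strand of the gene. Capitals mark the letters CCAAT or, on the other strand, ATTGG, and in Hmgcs1 also the one match to TCACNCCAC, a sterol element. The 3 regions are chr13:119690101-119690400 (plus strand), chr8:64733529-64733828 (minus strand) and chrX:72918271-72918570 (plus strand).
Hmgcs1: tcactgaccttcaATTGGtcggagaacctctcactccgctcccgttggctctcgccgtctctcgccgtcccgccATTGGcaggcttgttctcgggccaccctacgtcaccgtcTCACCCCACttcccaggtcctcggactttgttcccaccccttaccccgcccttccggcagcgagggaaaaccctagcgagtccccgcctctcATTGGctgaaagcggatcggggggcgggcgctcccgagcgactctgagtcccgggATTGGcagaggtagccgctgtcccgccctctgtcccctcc
Msmo1: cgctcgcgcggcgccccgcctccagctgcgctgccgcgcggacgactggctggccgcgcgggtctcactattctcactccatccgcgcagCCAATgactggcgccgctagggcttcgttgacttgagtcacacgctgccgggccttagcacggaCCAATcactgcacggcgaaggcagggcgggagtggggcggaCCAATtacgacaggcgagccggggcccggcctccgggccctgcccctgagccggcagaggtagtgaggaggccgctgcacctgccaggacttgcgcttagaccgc
Nsdhl: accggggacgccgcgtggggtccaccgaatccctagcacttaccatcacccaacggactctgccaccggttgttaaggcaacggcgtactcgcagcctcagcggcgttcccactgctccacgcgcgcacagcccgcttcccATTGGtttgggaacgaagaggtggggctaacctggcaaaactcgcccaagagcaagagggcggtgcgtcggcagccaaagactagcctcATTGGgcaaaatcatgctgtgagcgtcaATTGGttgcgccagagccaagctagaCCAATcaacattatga
Hmgcs1 holds 4 matches to CCAAT on either strand, Msmo1 holds 3 and Nsdhl holds 4. A promoter was at hand for 16990 of the genes tested, and 41.6% of these held at least 1 CCAAT on either strand. Among the sterol genes with a promoter, 20 of 23 held one (87.0%), as did 10 of the 10 that rose. TCACNCCAC was found in 1.43% of all promoters and, of the sterol genes, in Hmgcs1 alone. A match is only a run of letters in this window, and binding was not measured.

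The enzyme with the largest rise was Sqle, squalene epoxidase, which makes the oxygen bridge before ring closure. Its values were 4.53, 4.25 and 4.69 on the regular diet and 7.37, 7.65 and 6.79 on the high-fat diet, a difference of 2.78 ± 0.23 (adjusted p = 0.00276, limma), and it passed in 9 of 9 fits. Every high-fat diet array stood at least 2.10 above every regular-diet array, and the size is a lower bound, since the regular-diet mean was 4.49. Msmo1, a sterol C4-methyl oxidase, read 5.47, 6.53 and 6.03 against 8.22, 9.06 and 8.29, a difference of 2.51 ± 0.29 (adjusted p = 0.00886, limma). Nsdhl, which acts on the same C4 methyl groups, read 6.50, 6.39 and 6.30 against 8.12, 9.13 and 8.21, a difference of 2.09 ± 0.26 (adjusted p = 0.0115, limma). The groups did not overlap for either gene, and high-fat diet replicate 2 was the highest array for both.

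The same array was also the highest for Hmgcs1 and Fdps of the early path. Hmgcs1, the cytosolic HMG-CoA synthase at the entry of the pathway, read 8.56, 7.99 and 7.97 against 9.69, 10.72 and 9.64, a rise of 1.84 ± 0.28 (adjusted p = 0.02, limma). Fdps, which joins isoprene units into farnesyl diphosphate, read 6.36, 6.37 and 5.77 against 7.85, 8.56 and 7.91, a rise of 1.94 ± 0.25 (adjusted p = 0.0131, limma). Mvk, mevalonate kinase, rose by 0.73 ± 0.12. Of the late enzymes, Cyp51, the lanosterol demethylase, rose by 1.96 ± 0.25, Dhcr7 by 1.07 ± 0.16, Tm7sf2, a sterol reductase, by 0.79 ± 0.15 and Sc5d, a sterol desaturase, by 0.77 ± 0.10. Lss, lanosterol synthase, stood at 1.07 ± 0.23 and did not pass (adjusted p = 0.061, limma), with no overlap between 5.06, 5.64 and 5.67 and 6.33, 6.93 and 6.33.

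Sqle, Msmo1, Fdps and Cyp51 passed in 9 of 9 fits without 1 array, Nsdhl and Sc5d in 8, Hmgcs1 and Dhcr7 in 6, Mvk in 5 and Tm7sf2 in 1. In the fit of the 6 arrays alone only Sqle of these enzymes passed (adjusted p = 0.0243, limma). The adjusted p of the others ran from 0.0647 (Msmo1, Fdps and Nsdhl) to 0.144 (Tm7sf2) by limma. The count of risen late enzymes ran from 3, without regular-diet replicate 2, to 7, and that of early enzymes from 1 to 3, with 1 without regular-diet replicate 2, regular-diet replicate 3 or high-fat diet replicate 3. Among the genes that sense sterols, 2 of 9 rose. Srebf2, which encodes SREBP-2, read 6.84, 6.76 and 6.78 against 7.65, 7.87 and 7.46, a rise of 0.87 ± 0.13 (adjusted p = 0.0157, limma). Insig1, the retention protein and itself a known target of SREBP, read 8.72, 8.81 and 8.21 against 9.78, 10.60 and 9.95, a rise of 1.53 ± 0.24 (adjusted p = 0.0212, limma). They passed in 6 and 5 of 9 fits, and both lost the call without regular-diet replicate 2 or 3. Of the 8 measured genes of sterol export and LXR action, 0 were called by limma and 0 had an unadjusted p under 0.05.

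**Figure D2:**
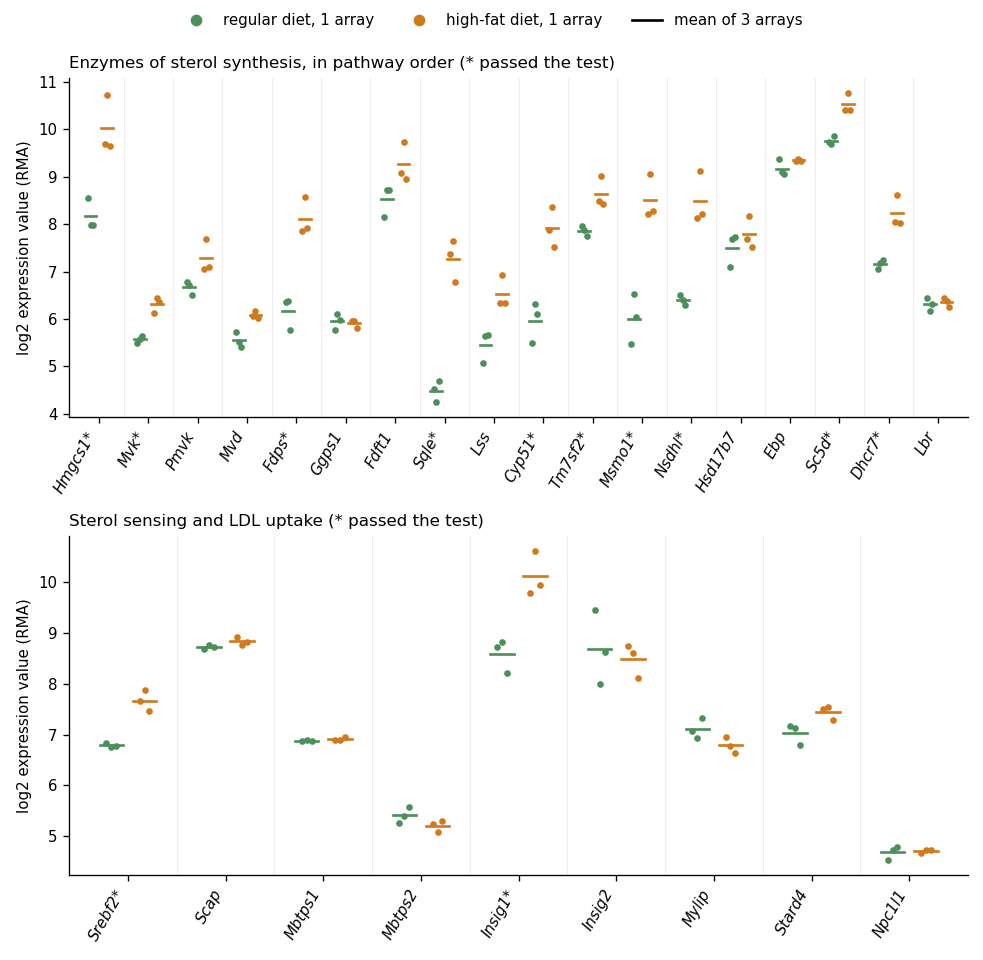
Log2 expression values of the measured genes of sterol synthesis (upper panel, in pathway order) and of sterol sensing (lower panel), with 1 point per array, green for the regular diet and orange for the high-fat diet. Lines are means of 3 arrays, and an asterisk marks the 12 genes that passed. Sqle moves from a mean of 4.49 to 7.27.

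Of 14 measured genes of fatty acid synthesis 1 rose and 10 were higher, with a median of 0.24. In 7 of them the high-fat diet arrays all lay above the regular-diet arrays, and 7 were higher at an unadjusted p under 0.05, against 7.93% and 6.89% of all genes. In 1, Acacb, they all lay below, and it was also the 1 gene that was lower at that level, against 7.86% and 6.39% of all genes. Acacb stood at -0.45 ± 0.10 and did not pass (adjusted p = 0.0744, limma). The riser was Thrsp, the Spot 14 protein of lipid synthesis, with 6.83, 7.67 and 7.52 on the regular diet and 8.76, 10.06 and 10.60 on the high-fat diet, a difference of 2.47 ± 0.45 (adjusted p = 0.0351, limma). Its high-fat diet arrays were spread over nearly 2 units, and it passed in 1 of 9 fits. Fasn, fatty acid synthase, stood at 0.87 ± 0.28 (adjusted p = 0.207, limma) and Srebf1, the fatty acid counterpart of Srebf2, at 1.05 ± 0.26 (adjusted p = 0.098, limma). Scd1, the main desaturase, stood at -0.43 ± 0.22 (adjusted p = 0.439, limma). Elovl2, an elongase of polyunsaturated fatty acids, fell by 0.57 ± 0.11 and passed in 1 of 9 fits.

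Lipid storage and uptake genes moved in both directions. Pparg, the adipogenic nuclear receptor, read 6.09, 6.00 and 6.47 against 6.98, 7.41 and 7.63, a rise of 1.15 ± 0.20 (adjusted p = 0.0287, limma). Plin4, a coat protein of lipid droplets, read 5.52, 5.83 and 6.13 against 6.83, 7.52 and 7.28, a rise of 1.38 ± 0.19 (adjusted p = 0.0145, limma). Fitm1, which helps to form droplets, read 8.71, 9.10 and 9.16 against 10.14, 10.18 and 10.39, a rise of 1.25 ± 0.12 (adjusted p = 0.00567, limma), and passed in 9 of 9 fits. A dimmer second probe set of Fitm1, with a mean of 6.27 over the 9 arrays, stood at only 0.30. In the other direction, Plin5, the droplet protein that ties droplets to mitochondria, read 8.82, 8.57 and 8.94 against 7.83, 7.66 and 7.91, a difference of -0.98 ± 0.13 (adjusted p = 0.0132, limma) that also passed in 9 of 9. The groups did not overlap for any of these 4 genes, and Pparg passed in 4 and Plin4 in 7 of 9 fits.

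Cd36, a fatty acid transporter and known target of PPARγ, read 8.50, 8.44 and 8.41 against 9.21, 10.07 and 9.86. Its difference was 1.27 ± 0.26 and did not pass (adjusted p = 0.0539, limma), although the groups did not overlap. Cidea, a droplet fusion protein, was high in 1 array: it read 4.12, 3.92 and 3.49 on the regular diet and 4.82, 4.18 and 6.86 on the high-fat diet. Cidec, a relative of it, overlapped between the diets at 6.83, 8.52 and 9.42 against 7.17, 7.47 and 8.41. Fabp2, an intestinal-type fatty acid binding protein, fell by 0.74 ± 0.09 and passed in 9 of 9 fits. Gpat4, which starts triglyceride assembly, fell by 0.96 ± 0.18 and passed in 1 of 9. Among lipid carriers and modifiers, Apom, the sphingosine 1-phosphate carrier, fell by 0.63 ± 0.07 and passed in 9 of 9, and Cers2, the ceramide synthase of very long chains, rose by 0.51 ± 0.07 and passed in 7.

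Genes of fatty acid oxidation were lower. Of the 21 measured genes of mitochondrial beta-oxidation, 18 were lower, with a median of -0.24, against 49.9% of all genes, and in 14 the high-fat diet arrays all lay below the regular-diet arrays, against 7.86% of all genes. Only Hadha, the alpha subunit of the trifunctional protein, fell, by 0.49 ± 0.07 (adjusted p = 0.019, limma), and at an unadjusted p under 0.05 there were 12. Hadha passed in 4 of 9 fits. The count of falls was 0 without regular-diet replicate 2 or 3 or high-fat diet replicate 1 or 3, and reached 4. Its partner Hadhb stood at -0.67 ± 0.14 and did not pass (adjusted p = 0.0501, limma). Of 18 genes of peroxisomal and omega oxidation, 2 fell and 13 were lower.

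The 2 peroxisomal and omega genes and Acot1 are classic targets of PPARα. Ehhadh, the bifunctional enzyme of peroxisomal beta-oxidation, read 11.60, 12.13 and 12.02 against 10.26, 10.11 and 9.79, a difference of -1.87 ± 0.20 (adjusted p = 0.00687, limma). Acot1, a cytosolic acyl-CoA thioesterase, read 9.23, 9.30 and 9.27 against 7.82, 7.53 and 7.13, a difference of -1.77 ± 0.15 (adjusted p = 0.00276, limma). Both passed in 9 of 9 fits, and the gap between the groups was 1.34 and 1.41. Cyp4a14, a fatty acid omega hydroxylase, read 12.65, 12.84 and 12.94 against 11.85, 12.24 and 11.39, a difference of -0.98 ± 0.19 that passed in 2 of 9. Acot1 and Cyp4a14 have near-identical relatives, so their signal cannot be assigned with certainty to 1 gene. Ppara itself stood at 0.10 ± 0.12. The element of PPARα was searched as AGGTCA, any base and AGGTCA again on both strands. Only 11 of 16990 promoters held these exact letters (0.0647%). No gene of the mitochondrial or the peroxisomal list did, but only 17 and 11 of these genes had a promoter. Letters this rare would be absent from most sets of that size, so the search cannot tell whether these genes carry such an element. Binding was not measured.

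Retsat, retinol saturase, a known PPAR target, read 11.76, 11.96 and 12.06 against 11.07, 11.08 and 11.05. It fell by 0.86 ± 0.10 (adjusted p = 0.00842, limma) and passed in 9 of 9 fits. Subunits of oxidative phosphorylation were lower in 55 of 70, with a median of -0.11, and Cox5a of complex IV fell by 0.37 ± 0.07. Cox5a passed in 0 of 9 fits. Ketogenic and fasting regulators had 0 calls of 13 by limma, with 4 lower at an unadjusted p under 0.05. Among them, Ppargc1a, the coactivator PGC-1α, stood at -1.04 ± 0.31 (adjusted p = 0.17, limma).

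Genes that dispose of amino acid nitrogen included 4 falls in the urea cycle. Of the 8 measured genes of the urea cycle, 7 were lower, with a median of -0.62. Cps1, the entry enzyme, read 12.30, 12.49 and 12.71 against 11.79, 11.82 and 11.93, a difference of -0.66 ± 0.10 (adjusted p = 0.0224, limma). Asl, argininosuccinate lyase, read 10.60, 11.10 and 11.13 against 9.60, 10.22 and 10.13, a difference of -0.96 ± 0.18. Arg1, arginase, fell by 0.59 ± 0.10, and Slc25a15, the ornithine carrier of mitochondria, by 0.69 ± 0.11. No array of one diet overlapped the other in these 4 genes, and Cps1 and Slc25a15 passed in 4 of 9 fits, Arg1 in 3 and Asl in 1. Otc, ornithine transcarbamylase, went the other way, with 10.76, 10.49 and 10.72 against 11.07, 11.12 and 11.11, a difference of 0.45 ± 0.09 that did not pass (adjusted p = 0.0576, limma). The count of urea cycle falls was 0 without regular-diet replicate 2 or 3 or high-fat diet replicate 1 or 3, and 5 at most.

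Got1, the cytosolic aspartate aminotransferase that feeds both the urea cycle and glucose production, was with Lepr one of the 2 genes that fell by more than 4-fold. It read 10.07, 11.09 and 11.56 against 8.56, 8.96 and 9.10, a difference of -2.03 ± 0.36 (adjusted p = 0.034, limma). Regular-diet replicate 1 was again the nearest to the high-fat diet, the value was -2.45 without it, and Got1 passed in 2 of 9 fits. Of 43 measured genes of amino acid breakdown 4 fell and 2 rose, with a median of 0.03. Beside Got1, the falls were Aass of lysine breakdown (-0.72 ± 0.10, 8 of 9 fits), Hgd of tyrosine breakdown (-0.69 ± 0.12, 1 of 9) and Hal of histidine breakdown (-0.76 ± 0.14, 2 of 9). Agxt2, a mitochondrial aminotransferase, rose by 0.75 ± 0.12 and Shmt2, mitochondrial serine hydroxymethyltransferase, by 0.36 ± 0.07, and these passed in 3 and 0 of 9 fits.

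Sulfur amino acid genes showed falls of more than 2-fold. Cth, cystathionine gamma-lyase, which makes cysteine, read 11.29, 11.84 and 11.96 against 10.22, 10.43 and 10.47, a difference of -1.33 ± 0.18 (adjusted p = 0.0132, limma). Csad, which leads from cysteine to taurine, read 8.61, 9.03 and 9.37 against 7.38, 7.83 and 7.54, a difference of -1.42 ± 0.19 (adjusted p = 0.0141, limma). Both passed in 7 of 9 fits. Gamt, the last enzyme of creatine synthesis and a user of methyl groups, rose, with 8.98, 8.87 and 8.49 against 9.67, 10.03 and 9.91, a difference of 1.09 ± 0.14 (adjusted p = 0.0115, limma), and passed in 8 of 9 fits. Of 21 genes in this group 2 fell, 1 rose and 12 were lower.

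Glucose genes were not called: of 14 genes of glucose production and glycogen 0 passed by limma, with 2 higher and 4 lower at an unadjusted p under 0.05. Of 13 genes of glycolysis 0 passed, with 3 higher and 1 lower. Pck1, phosphoenolpyruvate carboxykinase, read 12.20, 12.47 and 12.39 against 11.21, 11.63 and 11.54, without overlap, and its difference was -0.89 ± 0.26 (adjusted p = 0.151, limma).

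Hormone receptor and signalling genes contained the largest fall of all. Lepr, the leptin receptor, read 6.23, 8.73 and 9.30 on the regular diet and 3.77, 4.26 and 3.88 on the high-fat diet, a difference of -4.12 ± 0.65 (adjusted p = 0.0223, limma). The high-fat diet values lie under 4.74, so the fall is a lower bound, and the regular-diet values span 3 units. Leaving out regular-diet replicate 1 gave -5.05, leaving out replicate 3 gave -3.51, and Lepr passed in 4 of 9 fits. Of the other 8 genes of leptin signalling, 0 passed by limma, with 1 higher and 1 lower at an unadjusted p under 0.05. Igfbp2, a binding protein of insulin-like growth factors that is known to follow leptin, read 9.91, 10.93 and 11.14 against 9.07, 8.43 and 8.55, a difference of -1.98 ± 0.32 (adjusted p = 0.0243, limma) that passed in 4 of 9. Regular-diet replicate 1 was the lowest of its group for both genes.

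Irs2, the insulin receptor substrate that rises in fasting, read 6.81, 7.19 and 6.89 against 5.98, 6.06 and 6.00, a difference of -0.95 ± 0.13 (adjusted p = 0.0145, limma). Pik3r1, the regulatory subunit of PI3-kinase, rose by 0.69 ± 0.13. Among 29 insulin signalling genes these were the 2 calls, and the median was -0.05. Ghr, the growth hormone receptor, rose by 0.51 ± 0.09, from 8.78, 8.78 and 8.53 to 9.18, 9.17 and 9.28. Dio1, which activates thyroid hormone and is its standard liver target, read 8.66, 8.86 and 8.40 against 10.60, 9.95 and 10.55, a rise of 1.73 ± 0.23 (adjusted p = 0.0139, limma). Thrsp, described above, is another thyroid hormone target, and Thra, a receptor for the hormone, fell by 0.38 ± 0.07. Irs2 passed in 6 of 9 fits, Dio1 in 7, Pik3r1 and Ghr in 2 and Thra in 0.

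**Figure D3:**
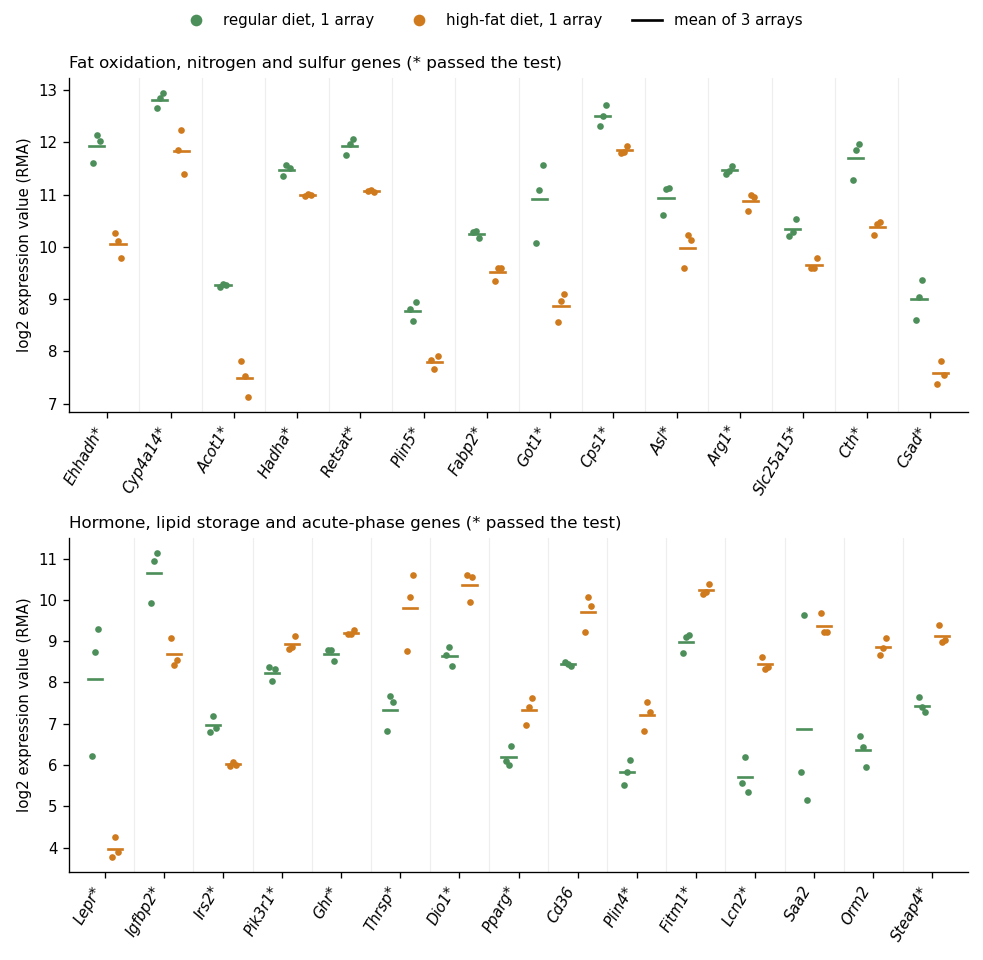
Log2 expression values per array for genes of fat oxidation, nitrogen and sulfur metabolism (upper panel) and for hormone, lipid storage and acute-phase genes (lower panel), green for the regular diet and orange for the high-fat diet, with lines at the mean of 3 arrays. An asterisk marks genes that passed. In Lepr, Got1 and Igfbp2 the lowest green point is regular-diet replicate 1, and in Saa2 the highest green point, at 9.63, is regular-diet replicate 2.

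Acute-phase genes were higher in 29 of 33, with a median of 0.20, and 5 rose, against 50.1% and 0.821% of all genes. Lcn2, lipocalin 2, which binds bacterial iron carriers, read 5.57, 6.20 and 5.34 against 8.62, 8.31 and 8.37, a rise of 2.73 ± 0.35 (adjusted p = 0.0131, limma). Steap4, a metalloreductase, read 7.64, 7.40 and 7.28 against 9.39, 8.98 and 9.02, a rise of 1.69 ± 0.13 (adjusted p = 0.00147, limma). Orm3 of the orosomucoid family rose by 1.88 ± 0.32, a lower bound from a regular-diet mean of 3.70, Apcs, serum amyloid P, by 0.82 ± 0.16 and Serpina3n by 0.73 ± 0.14. Of the serum amyloid A genes, Saa4 read 10.71, 10.70 and 10.91 against 12.47, 11.97 and 12.14, a rise of 1.42 ± 0.12, and Saa3 read 5.86, 5.75 and 5.70 against 7.52, 6.89 and 6.89, a rise of 1.33 ± 0.19. Steap4 and Saa4 passed in 9 of 9 fits, Lcn2 in 8, Saa3 in 7, Orm3 in 2 and Apcs and Serpina3n in 1.

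Saa2 and Orm2 of the same kind did not pass. Saa2 read 9.63 in regular-diet replicate 2 and 5.84 and 5.15 in the other regular-diet arrays, against 9.68, 9.21 and 9.23 on the high-fat diet (2.50 ± 1.20, adjusted p = 0.419, limma). Orm2 did not overlap, at 6.70, 6.45 and 5.95 against 8.68, 8.83 and 9.08, but its difference of 2.50 ± 0.71 did not pass (adjusted p = 0.149, limma). The extract arrays, which share in the estimate of the spread, read 6.47, 6.58 and 9.68 for Orm2, and in the fit of the 6 arrays alone its adjusted p was 0.0243 (limma). In that fit Lcn2, Steap4 and Saa4 also passed (adjusted p = 0.0243, 0.0258 and 0.0443, limma). Saa3, Orm3, Serpina3n and Apcs did not pass there (adjusted p = 0.0674, 0.109, 0.112 and 0.121, limma). Members of the Saa and Orm families are similar in sequence, so the split of signal between them is uncertain. The whole acute-phase list had from 1 riser, without high-fat diet replicate 3, to 5.

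Complement and clotting genes were mostly higher by small amounts. Of 26 complement genes 24 were higher and 3 rose: C4b by 0.60 ± 0.11, Masp1 of the lectin pathway by 0.62 ± 0.09 and C4bp, an inhibitor of C4, by 0.76 ± 0.13. C4b has a near-identical relative. Of 22 coagulation genes 17 were higher, and F11, clotting factor XI, rose by 1.06 ± 0.17 (8.59, 8.06 and 8.07 against 9.51, 9.21 and 9.18). Proz, protein Z, rose by 0.43 ± 0.06. Masp1 passed in 6 of 9 fits, Proz in 5, F11 in 4 and C4b and C4bp in 1.

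Interferon-stimulated genes were higher in 46 of 52, with a median of 0.44, against 50.1% of all genes. In 28 of them the high-fat diet arrays all lay above the regular-diet arrays, against 7.93% of all genes, and 8 rose. The count of risers ran from 2, without regular-diet replicate 2 or high-fat diet replicate 3, to 18. Uba7, the enzyme that activates the ubiquitin-like protein ISG15, read 5.80, 5.85 and 5.81 against 6.46, 6.38 and 6.40, a rise of 0.60 ± 0.08 (adjusted p = 0.0139, limma). Lgals3bp, a secreted galectin ligand, read 8.55, 8.38 and 8.35 against 9.50, 9.31 and 9.02, a rise of 0.85 ± 0.13. Ifih1, the RNA sensor MDA5, rose by 0.55 ± 0.11, Herc6, the mouse ligase for ISG15, by 0.78 ± 0.14, and Oasl2 by 0.74 ± 0.13. Oas1b rose by 0.52 ± 0.06 from a mean of 4.32, a lower bound, and was the only one of the 8 to pass in 9 of 9 fits. The remaining 2 were Apol9a (0.92 ± 0.18) and Apol9b (0.65 ± 0.09), a near-identical pair. Uba7 and Apol9b passed in 7 of 9 fits, Lgals3bp in 5, Herc6 and Oasl2 in 3, Apol9a in 2 and Ifih1 in 1. In regular-diet replicate 1 the median of the list lay at 0.13 relative to the regular-diet mean, and in replicates 2 and 3 at -0.11 and -0.05.

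Guanylate-binding proteins and related GTPases, which act against microbes inside cells, were higher in 15 of 15, with a median of 0.50. Of these 3 rose, against 0.821% of all genes. Gbp10 read 8.53, 7.03 and 6.70 against 10.10, 10.14 and 10.03, a rise of 2.67 ± 0.38 (adjusted p = 0.0145, limma). Gbp7 read 6.73, 6.33 and 6.51 against 7.54, 7.63 and 7.38, a rise of 1.00 ± 0.14 (adjusted p = 0.0163, limma), and Gbp3 rose by 0.86 ± 0.14, a lower bound. Gbp10 and Gbp3 passed in 5 of 9 fits and Gbp7 in 4, and regular-diet replicate 1 held the highest regular-diet value in each of the 3. The count ran from 0, without regular-diet replicate 2 or high-fat diet replicate 1 or 2, to 8, and the members of the family resemble each other. Gbp11 stood at 2.27 ± 0.47 and did not pass (adjusted p = 0.0567, limma).

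The promoters of Gbp3 and Gbp7 are printed because genes of this family are known to carry elements read by interferon-activated factors close to the start. The regions are chr3:142559794-142560093 and chr3:142530086-142530385, both on the plus strand of GRCm38.p6, from RefSeq. Capitals mark GAAA, any 2 bases and GAAA again, the core of the interferon-stimulated response element, or its complement on the other strand.
Gbp3: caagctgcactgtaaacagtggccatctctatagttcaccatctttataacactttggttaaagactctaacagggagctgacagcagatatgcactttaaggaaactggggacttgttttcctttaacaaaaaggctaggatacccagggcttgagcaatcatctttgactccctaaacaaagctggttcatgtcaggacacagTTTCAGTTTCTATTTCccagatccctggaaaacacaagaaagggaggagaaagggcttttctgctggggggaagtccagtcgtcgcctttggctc
Gbp7: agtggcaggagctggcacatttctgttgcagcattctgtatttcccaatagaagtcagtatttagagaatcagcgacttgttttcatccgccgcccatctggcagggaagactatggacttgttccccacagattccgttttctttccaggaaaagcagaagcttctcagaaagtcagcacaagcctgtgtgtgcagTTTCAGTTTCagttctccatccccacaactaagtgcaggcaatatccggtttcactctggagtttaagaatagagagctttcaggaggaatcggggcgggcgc
In Gbp3 2 matches overlap, and Gbp7 holds 1. These letters stood in 3.87% of all promoters, in 7 of the 7 genes of the GTPase list that had a promoter, and in 17 of 40 interferon-stimulated genes (42.5%). Among all called genes they stood in 11 of 140 that rose (7.86%) and 7 of 78 that fell (8.97%).

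Other immune lists held few calls. Of 38 chemokines and receptors 1 rose, against 0.821% of all genes, and 15 lay under 4.74 in every one of the 6 arrays. At an unadjusted p under 0.05, 10 were higher and 1 lower, against 6.89% and 6.39% of all genes. The riser was Cxcl1, which attracts neutrophils, with 5.40, 5.39 and 5.30 against 6.30, 6.10 and 6.20, a rise of 0.84 ± 0.09 (adjusted p = 0.00687, limma) that passed in 9 of 9 fits. The chemokines Cxcl9 (0.98 ± 0.26, adjusted p = 0.13, limma), Cxcl10 (0.96 ± 0.21, adjusted p = 0.0715, limma) and Ccl2 (0.68 ± 0.23, adjusted p = 0.221, limma) did not pass, although their groups did not overlap, by gaps of 0.06, 0.10 and 0.03. Cxcl10 passed without regular-diet replicate 1 (1.19, adjusted p = 0.0202, limma), a fit that raised the calls over all genes to 452. Among 46 cytokine, inflammasome and Toll-like receptor genes 3 rose and 1 fell, and 15 lay under 4.74 in every one of the 6 arrays. Ly96, the MD-2 partner of the endotoxin receptor, rose by 0.93 ± 0.13 (5.94, 5.63 and 5.82 against 6.73, 6.87 and 6.59), Tlr5, the flagellin receptor, by 0.77 ± 0.14 and Nlrp6 by 0.56 ± 0.10. Nlrp12 fell by 0.80 ± 0.15. Ly96 passed in 8 of 9 fits, Nlrp12 in 2 and Tlr5 and Nlrp6 in 1. Tnf read at most 3.95 and Il6 at most 2.24 in these 6 arrays, under 4.74. MHC and antigen presentation genes had 0 calls of 29 by limma, but 26 were higher, against 50.1% of all genes. At an unadjusted p under 0.05, 9 of them were higher and 1 lower, against 6.89% and 6.39% of all genes.

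Markers of other liver cells were read beside these immune genes. In bulk tissue, fewer cells of a type and less RNA per cell cannot be told apart. The 15 Kupffer cell markers had 0 calls by limma, 0 at an unadjusted p under 0.05, a median of -0.02 and a range from -0.20 to 0.38. Neutrophil markers had 0 calls of 10 and 0 at an unadjusted p under 0.05, and 9 of the 10 lay under 4.74 in every one of the 6 arrays. Of 20 lymphocyte markers, 15 lay under that level in every array. Markers of recruited and lipid-associated macrophages were higher in 14 of 17, with a median of 0.23, and 9 had a higher value at an unadjusted p under 0.05. The only call was a fall, of Cd9 by 0.74 ± 0.10, which passed in 7 of 9 fits. The part of these markers in the interferon and acute-phase differences was not tested.

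Themis, known from T cell development, was nevertheless among the largest rises. It read 3.82, 4.40 and 4.13 against 6.35, 6.66 and 6.87, a difference of 2.51 ± 0.29 (adjusted p = 0.00886, limma), a lower bound, and it passed in 9 of 9 fits. The other 19 lymphocyte markers did not pass. Lgals1, galectin 1, listed with the stellate cell and fibrosis genes, read 6.49, 6.88 and 6.52 against 8.32, 9.01 and 9.24, a rise of 2.23 ± 0.27 (adjusted p = 0.0102, limma), and passed in 9 of 9. It was the only call among 28 genes of that list, of which 16 were higher and 12 lower, with a median of 0.09. At an unadjusted p under 0.05, 3 were higher and 3 lower, and the diets did not overlap in 5 upward and 4 downward. Dcn (-0.38 ± 0.11) and Hgf (-0.29 ± 0.09) were among the downward ones and did not pass. Of 21 collagens 2 rose: Col3a1 read 6.01, 5.94 and 6.20 against 6.84, 7.27 and 7.45 (1.14 ± 0.14, adjusted p = 0.0115, limma) and Col1a1 read 5.93, 5.79 and 5.93 against 6.43, 6.84 and 6.92 (0.85 ± 0.12, adjusted p = 0.0152, limma). They passed in 8 and 5 of 9 fits. Endothelial markers had 0 calls of 26 by limma, with 2 higher and 8 lower at an unadjusted p under 0.05.

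The lists of conjugation enzymes, carboxylesterases and hepatocyte transporters, which handle foreign compounds and plasma solutes, held rises and 0 called falls. Of 43 conjugation enzymes 5 rose, against 0.821% of all genes, and 33 were higher, with a median of 0.24. At an unadjusted p under 0.05, 21 were higher and 3 lower, against 6.89% and 6.39% of all genes. These 5 were the sulfotransferases Sult1c2 (1.07 ± 0.18) and Sult1b1 (0.92 ± 0.14), the methyltransferase Tpmt (0.65 ± 0.09) and the glycosyltransferases Ugt2b36 (0.54 ± 0.10) and Ugt3a2 (0.43 ± 0.06). Tpmt passed in 6 of 9 fits, Sult1b1 and Ugt3a2 in 4, and Sult1c2 and Ugt2b36 in 2. Gstt2, a glutathione transferase, went the other way without passing, at -1.01 ± 0.23 (adjusted p = 0.0739, limma), with no overlap. It passed without regular-diet replicate 1 (-1.32, adjusted p = 0.00594, limma), a fit that raised the calls over all genes to 452. Of 16 carboxylesterases 4 rose, with 5 higher and 1 lower at an unadjusted p under 0.05. Ces1g, which also cleaves lipid esters, read 8.88, 8.56 and 7.27 against 9.74, 10.80 and 10.27, a rise of 2.03 ± 0.39 (adjusted p = 0.0412, limma), and Ces2e, Ces2g and Ces3a rose by 0.53 to 0.93. Ces2e passed in 7 of 9 fits, Ces3a in 2 and Ces1g and Ces2g in 1. Esterases of this family are similar in sequence. Without regular-diet replicate 2 or high-fat diet replicate 3 the conjugation enzymes had 0 risers, as had the esterases without high-fat diet replicate 3.

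Of the P450 genes, which oxidise drugs and steroids, 1 of 14 in the Cyp2c family, 2 of 31 in other families and 0 of 11 in the group of Cyp2b genes and CAR or PXR targets rose by limma. At an unadjusted p under 0.05, 2, 16 and 3 of these were higher and 0, 1 and 1 were lower. Cyp2b9 had the largest difference of all genes named and did not pass. It read 5.00, 3.47 and 3.56 on the regular diet and 6.52, 11.37 and 10.41 on the high-fat diet, a difference of 5.43 ± 1.10 (adjusted p = 0.0535, limma). The groups did not overlap, and the high-fat diet arrays spanned nearly 5 units. Leaving out high-fat diet replicate 1 gave 6.88, where Cyp2b9 passed (adjusted p = 0.00914, limma), and leaving out replicate 2 gave 4.46 (adjusted p = 0.144, limma).

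Of 32 genes listed as hepatocyte transporters 4 rose, against 0.821% of all genes. At an unadjusted p under 0.05, 10 were higher and 4 lower, against 6.89% and 6.39% of all genes. Slc22a7, an organic anion transporter, read 5.68, 5.02 and 3.88 against 7.48, 6.51 and 7.10, a rise of 2.17 ± 0.41 (adjusted p = 0.0394, limma) that passed in 1 of 9 fits. Abcc3, a basolateral exporter of bile salts and conjugates, rose by 0.75 ± 0.12, Slc10a2, a bile acid importer of bile duct cells, by 0.79 ± 0.13 and Slc22a23 by 0.49 ± 0.08. They passed in 5, 3 and 4 of 9 fits. Bile acid synthesis and FXR genes had 0 calls of 16 by limma, with 4 higher and 2 lower at an unadjusted p under 0.05. Enzymes of vitamins and nicotinamide included 4 risers and 1 fall among 31. Aldh1a1, a retinaldehyde dehydrogenase, read 11.49, 11.28 and 11.09 against 11.96, 12.36 and 12.25, a rise of 0.90 ± 0.13 (adjusted p = 0.0145, limma). The aldehyde oxidases Aox3 and Aox1 rose by 1.03 ± 0.18 and 0.55 ± 0.11, the cobalamin carrier Tcn2 by 0.59 ± 0.11, and Naprt of NAD synthesis fell by 0.54 ± 0.07. Naprt passed in 7 of 9 fits, Aldh1a1 in 6, Aox3 in 2, Aox1 in 1 and Tcn2 in 0.

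The medians of folding genes of the endoplasmic reticulum and of heat shock and cytosolic chaperone genes lay on opposite sides of zero. Of 47 genes of folding in the endoplasmic reticulum and the unfolded protein response, 41 were higher, with a median of 0.24. In 24 the high-fat diet arrays all lay above the regular-diet arrays, against 7.93% of all genes. By limma 0 passed, with 20 higher and 0 lower at an unadjusted p under 0.05, against 6.89% and 6.39% of all genes. The 4 with the smallest p were Syvn1 (0.56 ± 0.12, adjusted p = 0.055, limma) and Sel1l (0.49 ± 0.10), which remove misfolded proteins, and the chaperone Canx (0.43 ± 0.10) with the transferase subunit Ostc (0.45 ± 0.11). Syvn1 read 6.98, 6.65 and 6.79 against 7.58, 7.20 and 7.32. Of 17 heat shock and cytosolic chaperone genes, 16 were lower, with a median of -0.33, against 49.9% of all genes. In 8 the high-fat diet arrays all lay below the others, against 7.86% of all genes. These 8 include Hspd1 (-0.39 ± 0.10) and Hspe1 (-0.36 ± 0.08), which are chaperones of mitochondria and did not pass. Ahsa1, a co-chaperone of HSP90, fell by 0.41 ± 0.08 and passed in 0 of 9 fits. The letters CCAAT, on either strand, stood in 28 of the 38 promoters of the endoplasmic reticulum list (73.7%), against 41.6% of all promoters. Among all called genes they stood in 66 of 140 that rose (47.1%) and 39 of 78 that fell (50.0%). Binding was not measured, and a part of these letters in the differences was not tested.

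Of 67 cytosolic ribosomal protein genes 54 were lower and 13 fell, against 49.9% and 0.518% of all genes, and the median was -0.21. Rps3a1 read 8.48, 8.65 and 8.57 against 8.0, 7.93 and 8.05, a difference of -0.57 ± 0.07 (adjusted p = 0.0131, limma), and passed in 8 of 9 fits. Rpl7 read 8.92, 8.91 and 9.01 against 8.41, 8.37 and 8.42, a difference of -0.55 ± 0.06 (adjusted p = 0.00886, limma), and was the only one of the 13 to pass in 9 of 9 fits. The other 11 fell by 0.36 to 0.48. The count was 1 without regular-diet replicate 2 and at most 10 without any other array. Ribosomal protein genes have many processed copies that can share probes. Of 38 proteasome subunits 2 fell (Psmd9 by 0.78 ± 0.14 and Psmb4 by 0.42 ± 0.08) and 30 were lower, and of 68 mitochondrial ribosomal protein genes 1 fell (Mrpl15 by 0.61 ± 0.08). Mrpl15 passed in 7 of 9 fits and Psmd9 and Psmb4 in 1. Translation factors had 0 calls of 56 by limma, with 3 higher and 9 lower at an unadjusted p under 0.05.

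Small nucleolar RNAs, which guide the chemical modification and cleavage of ribosomal RNA, fell in a larger share than genes of other large classes. Of the 80 tested genes that RefSeq classes as small nucleolar RNA, 14 were called, all as falls (17.5%), against 1.4% of protein-coding genes and 0.467% of long non-coding RNA genes. Of the 74 on the list made from symbols, 16 fell and 68 were lower, and the median was -0.41. In 51 of them the high-fat diet arrays all lay below the regular-diet arrays, against 7.86% of all genes. By limma 0 rose, with 56 lower and 0 higher at an unadjusted p under 0.05. The falls comprised 11 of 47 box C/D RNAs with a Snord symbol, 4 of 26 H/ACA RNAs with a Snora symbol, and Rnu3a. Rnu3a, a U3 RNA that directs the early cleavages of ribosomal RNA, read 8.19, 8.18 and 7.71 against 6.29, 6.17 and 6.84, a difference of -1.59 ± 0.24 (adjusted p = 0.019, limma). Snora73b read 10.93, 10.81 and 10.39 against 9.21, 8.76 and 9.65, a difference of -1.5 ± 0.21 (adjusted p = 0.0145, limma). Snora73a, a close relative, fell by 1.48 ± 0.22. Regular-diet replicate 3 and high-fat diet replicate 3 stood nearest to each other in all 3 RNAs, of which Snora73a and Snora73b passed in 7 of 9 fits and Rnu3a in 6. Without regular-diet replicate 2 or high-fat diet replicate 1 only 1 small nucleolar RNA fell, and 13 was the highest count without 1 array.

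Most small nucleolar RNAs are cut from introns, so each was set beside the gene whose span holds it in RefSeq's GRCm38.p6 annotation. Of the 74, 60 lay inside 47 measured genes. The containing genes were lower in 36 of 47, with a median of -0.18 against -0.42 for the RNAs inside them, and 5 of the 47 fell. Rps3a1, with Snord73a (-0.63 ± 0.11) and Snord73b (-0.87 ± 0.13) in it, and Rpl23a (-0.39 ± 0.07), with Snord42b (-0.68 ± 0.11), fell together with their RNAs. These passed in 8 (Rps3a1), 3 (Snord73a), 6 (Snord73b), 1 (Rpl23a) and 3 (Snord42b) of 9 fits. The other 3 containing genes fell while the RNA inside did not pass: Rps12 (-0.43 ± 0.08) with Snora33 at -0.23, Rpsa (-0.38 ± 0.07) with Snora62 at -0.11, and Rpl4 (-0.36 ± 0.07) with Snord16a at -0.37. These 3 genes passed in 2, 1 and 0 of 9 fits. In other cases the containing gene did not pass: Snhg3, which holds Snora73a and Snora73b, stood at -0.53 ± 0.15 (adjusted p = 0.134, limma), and Rpl37, which holds Snord72 (-0.77 ± 0.10, 8 of 9 fits), at -0.10 ± 0.17. Probe sets of whole-transcript arrays can lie in exons of the containing gene or on the small RNA, and RMA values of different probe sets were not compared as levels. Of 483 microRNA genes, 0 were called by limma, and 39 had an unadjusted p under 0.05. That is a smaller share than the 2946 of all 22180 genes at this level.

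**Figure D4:**
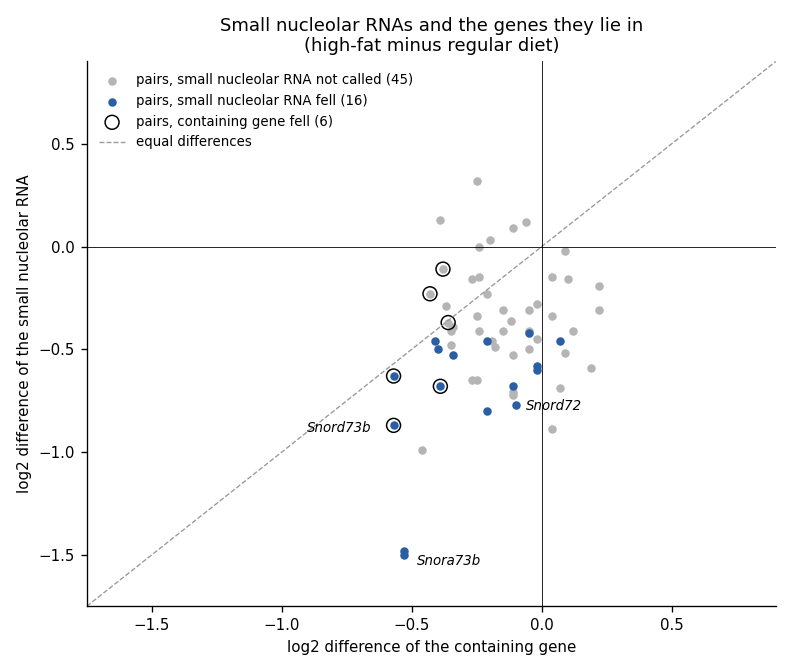
Each point pairs 1 small nucleolar RNA (vertical axis, log2 difference between the diets) with a gene that contains it (horizontal axis). There are 61 pairs of 60 RNAs, since Snord87 lies in 2 genes. Blue points are RNAs that fell, open circles mark the 6 pairs whose containing gene fell, and most points lie below the dashed line of equal differences.

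**Figure D5:**
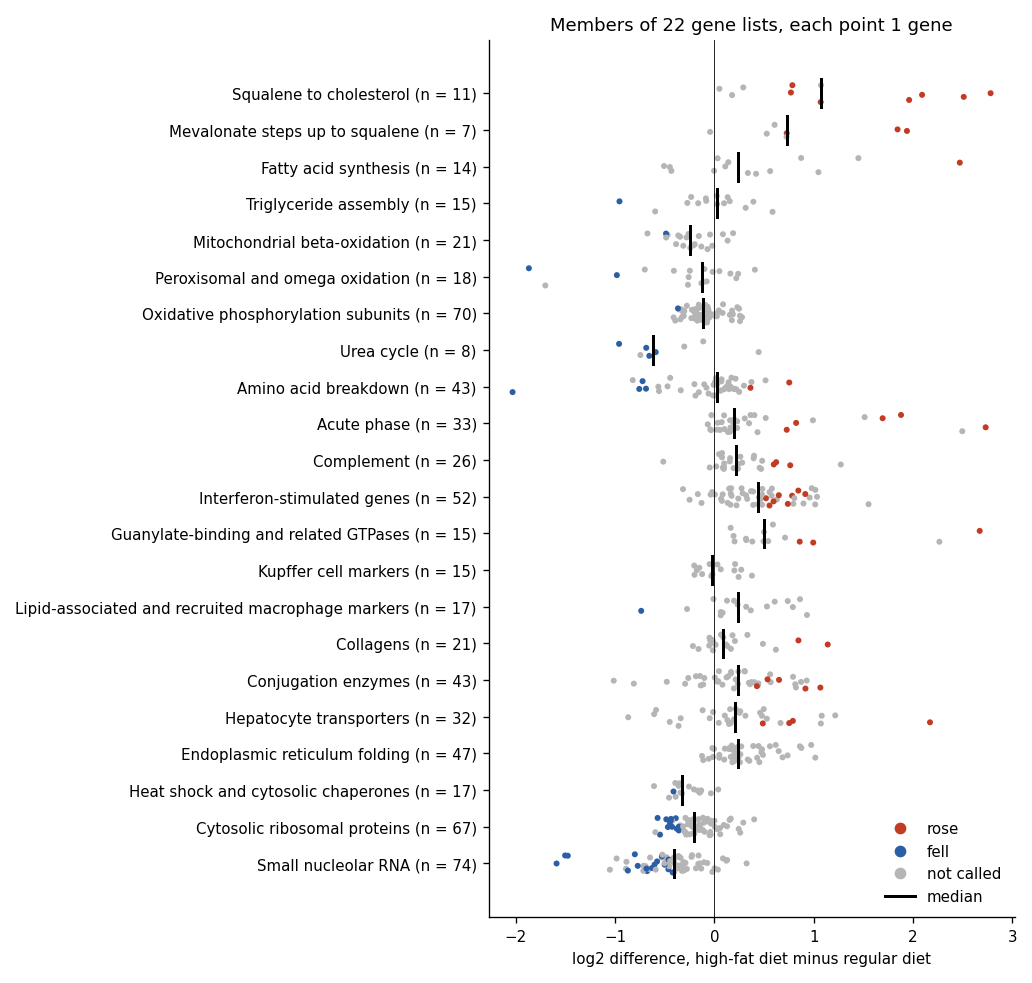
Log2 differences of the members of 22 gene lists, 1 point per gene, red where it rose and blue where it fell, with a black bar at the median. Medians reach from -0.62 for the urea cycle to 1.07 for the enzymes that turn squalene into cholesterol.

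Of the 297 called genes, 152 were on none of the 85 gene lists, and they included the smallest p-values of the comparison. The gene with the smallest of all was C730002L08Rik, a long non-coding RNA gene, which lies outside the naming rule and was picked after its values were seen. It read 3.60, 3.40 and 3.36 against 5.93, 5.71 and 5.61, a rise of 2.29 ± 0.13 (adjusted p = 0.000385, limma), a lower bound from a regular-diet mean of 3.45, and passed in 9 of 9 fits. In RefSeq's gene order its direct neighbours are E030003E18Rik, which stood at 0.16 ± 0.21 (adjusted p = 0.816, limma), and Gm6684, which was not tested here. Beyond these lie Aldh1a1, which rose by 0.90 ± 0.13, and Aldh1a7, which stood at 0.43 ± 0.09 and did not pass (adjusted p = 0.0563, limma).

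Among genes with a known product, several membrane carriers were called with small p-values. Slc23a1, a vitamin C transporter, read 8.36, 8.09 and 8.28 against 9.56, 9.51 and 9.52, a rise of 1.29 ± 0.09 (adjusted p = 0.00115, limma). Gulo, the enzyme that makes vitamin C in mice, which is listed with the hepatocyte zone markers, rose by 0.84 ± 0.15 and passed in 1 of 9 fits, against 9 of 9 for Slc23a1. Slc13a3, a dicarboxylate carrier, read 5.67, 5.58 and 5.51 against 6.83, 7.18 and 7.26, a rise of 1.5 ± 0.17 (adjusted p = 0.00886, limma). Slc50a1, a sugar carrier, read 6.39, 6.38 and 6.63 against 7.78, 7.84 and 7.59, a rise of 1.27 ± 0.13 (adjusted p = 0.00567, limma). Clcn7, a chloride and proton exchanger of lysosomes, rose by 0.63 ± 0.06 and Slc12a7, a potassium and chloride cotransporter, by 0.61 ± 0.07. These 5 carriers passed in 9 of 9 fits and their groups did not overlap.

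Further genes on no list that passed in 9 of 9 fits are given with their roles. Cyb5r3, cytochrome b5 reductase, which supplies electrons to desaturases and sterol enzymes, read 10.13, 9.95 and 9.91 against 10.86, 11.19 and 10.94, a rise of 1.00 ± 0.11. Tlcd2, a membrane protein, read 7.85, 8.22 and 7.74 against 9.16, 9.38 and 9.46, a rise of 1.40 ± 0.13 (adjusted p = 0.00514, limma). Cd81, a tetraspanin, rose by 0.76 ± 0.08, Adra1b, the main alpha-1 adrenergic receptor of liver, by 0.82 ± 0.10, and Adh4, an alcohol dehydrogenase, by 0.69 ± 0.08. Sorbs3, vinexin, an adaptor at cell contacts, read 8.29, 8.45 and 8.64 against 7.47, 7.45 and 7.25, a difference of -1.07 ± 0.11 (adjusted p = 0.00567, limma). Other large changes were less stable: Car3, carbonic anhydrase 3, rose from 11.97, 11.11 and 10.12 to 12.75, 13.12 and 13.11 (1.93 ± 0.37), and Acmsd, which diverts tryptophan breakdown away from NAD, fell by 1.01 ± 0.19, each passing in 2 of 9 fits.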

How the data were processed

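Whole-transcript microarrays measured liver RNA, with 3 arrays on the regular diet, 3 on the high-fat diet and 3 on the high-fat diet with extract. The authors deposited log2 values for each probe set, made by RMA with oligo according to the labels (per the submitters' processing notes, without versions). RMA equalises the distributions of the arrays, so a shift shared by most genes would have been removed, and neither scan dates, batches nor the genome build of the probe sets were given in the sources used here. No array was left out, no value was transformed again, and precision is limited by having 3 arrays a group.

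Of 41345 probe sets, 23521 had 1 gene symbol in the platform's annotation table, 1814 had several and 16010 had none. The brightest probe set stood for each of the 1082 genes with more than 1, which gave 22180 genes. Symbols were checked by gene identifier against RefSeq on GRCm38.p6, where 21994 were equal and 186 had no match, and RefSeq also gave the gene order and the promoters. Symbols matched a promoter for 16990 genes.

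A mean per group was fitted to the 9 arrays with limma 3.58.1 in R 4.3.3, with 6 residual and 3.28 prior degrees of freedom, and two-sided p-values were adjusted over all genes by Benjamini-Hochberg. An exact permutation test of 3 against 3 arrays cannot go below p = 0.1 and was not used. The members and the 85 gene lists were chosen with earlier results of these data known, and the patterns used for the ribosomal protein, translation factor and small nucleolar RNA lists were corrected after the values were seen. Lists are described by counts and medians beside all genes. Genes could be named where they passed with no overlap between the groups, where they were among the members of a list with the smallest p, or where they belonged to a short list of liver genes, leaving out predicted genes and most unnamed transcripts. Replicate numbers were not used to pair arrays, since deviations of same-numbered arrays correlated at -0.051 to 0.173. The alternatives were other variance moderation, brighter genes only, averaging the probe sets of a gene, further normalization, array weights, the replicate block, other thresholds, the 6 arrays alone and leaving out each array. Tested on simulated data for this comparison with 22180 genes in 5 simulations, the procedure recovered 49.3% of genes changed by 0.5 on the log2 scale, 86.9% at 1 and 99.4% at 2. False calls made up 53 of 837.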

Additional observations from a re-analysis of the deposited data

Results flagged for a closer look

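Probe sets without a gene symbol lay outside the comparison of genes, and 12 of the 16010 rose on the high-fat diet and 13 fell when all probe sets of the array were fitted together with limma. The 25 that changed were 0.156% of these probe sets. Probe set 17317056 read 8.52, 8.61 and 8.31 on the regular diet and 9.77, 9.82 and 9.78 on the high-fat diet, a difference of 1.31 ± 0.10 (adjusted p = 0.00681, limma). Probe set 17344287 read 10.76, 10.54 and 9.95 against 8.83, 8.80 and 9.25, a difference of -1.45 ± 0.21 (adjusted p = 0.0441, limma). Some of these probe sets held identical values, so they are not independent. These probe sets were picked after their values were seen, and what they measure was not examined.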

How the results depend on the processing

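The 297 calls kept the sign of their difference in every alternative run, with 275 of them tested among the brighter genes. Several of these runs leave the difference itself unchanged, and the genes were chosen on these same arrays, so the kept sign is no independent test. The count of calls depended strongly on the setting. It was 597 among the genes above the median brightness, where 11090 genes were tested, 611 at an adjusted p under 0.10 and 171 with a fold of at least 1.5. It was 91 when all probe sets of the array were fitted and adjusted together, counting the probe sets that stand for a gene. With only the 6 arrays compared it was 15, of which 14 were among the 297. Leaving out 1 array gave between 58 and 452 calls. With the replicate block there were 201, of which 166 were shared, although the numbers do not pair the arrays. Without 1 array, Cidec stood between -1.29 and 0.01, Snora62 between -0.26 and 0.13 and E030003E18Rik between -0.09 and 0.44. The cause of these changes was not tested. Calls made up 0.18% of the 5545 dimmest genes and 4.09% of the 5545 brightest.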

Other observations

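C730036E19Rik, a long non-coding RNA gene that was picked after its values were seen, read 8.0, 8.33 and 7.06 against 10.16, 10.23 and 10.30, a rise of 2.43 ± 0.26 (adjusted p = 0.00691, limma), and passed in 9 of 9 fits without 1 array. Of the 297 called genes, 25 had further probe sets with the same symbol, 35 in all, and 30 of these had the same sign of difference. Among the 25 of these probe sets above the median brightness, 24 had the same sign. Sizes could differ: they were 1.25 and 0.30 for Fitm1, 0.51 and 0.22 for Cers2, and 1.93 and 2.04 for Car3.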
